A study of Mus musculus with 119 samples.

Results

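LPS-stimulated bone marrow-derived macrophages (BMDMs) in which MKK1/2 was inhibited were compared with LPS-stimulated BMDMs that carried kinase-dead TPL-2, to ask which genes respond differently to blocking the pathway at these 2 levels. The comparison held 12 RNA-seq libraries of the series, which has 107 others, chosen by their labels: 6 of C57BL/6 WT cells that received 0.1 µM PD0325901 for 10 min and then 100 ng/ml LPS for 1 h, and 6 of Map3k8[D270A] cells that received 100 ng/ml LPS for 1 h. The reference groups were WT cells after 1 h of LPS (6 libraries), WT and Map3k8[D270A] cells without LPS (6 each), WT cells given DMSO for 10 min without LPS (3) and WT cells given PD0325901 for 10, 40 or 70 min without LPS (3 each), with both arms also sampled after 0.5 h (6 each). All macrophages were grown from bone marrow in L-cell-conditioned medium and rested overnight in low serum.

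These groups limit the comparison in several ways. The PD0325901 arm and the Map3k8[D270A] arm carry the names of separate experiments, and each is compared across that divide. DMSO with LPS was not analysed here, so solvent, inhibitor and experiment cannot be told apart in the LPS libraries of the PD0325901 arm. Map3k8[D270A] macrophages lacked TPL-2 kinase activity from the start of their development, whereas the inhibitor was present for 70 min, and it acts on MKK1/2 whatever kinase activates them. The study's methods call the libraries biological replicates, and the labels tie none of them to an animal or culture. The p-values therefore measure the spread between libraries of a group, pooled over all groups of the series, and this spread may be technical. Within the PD0325901 arm, each of the 12 libraries with LPS for 0.5 or 1 h was most alike to the library 3 replicate numbers away (1 and 4, 2 and 5, 3 and 6), and these may be repeats of 3 cultures. The summed linear level of ribosomal and other RNA quality genes ran from 28855 to 286852 in the PD0325901 libraries and from 33770 to 46079 in the Map3k8[D270A] libraries.

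TPL-2, the product of Map3k8, is held inactive by NF-kB1 p105 in resting macrophages. TLR4 signalling releases it, and it then phosphorylates MKK1 and MKK2, which activate the MAP kinases ERK1 and ERK2. PD0325901 is an allosteric inhibitor of MKK1 and MKK2. ERK signalling induces immediate early genes such as Egr1 and Fos through ternary complex factors and SRF, and also induces its own inhibitors of the DUSP, Sprouty and Spred families. In macrophages the pathway is further known to restrain LPS-induced interferon-β.

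Differences in the messenger RNA of the pathway itself were small at 1 h. Map3k8 lay between 9.45 and 9.60 on the deposited log2 scale in the PD0325901 libraries and between 9.53 and 9.61 in the Map3k8[D270A] libraries, and these ranges overlapped. As the D270A allele changes an amino acid, the transcript level does not check the genotype. Map2k1, which encodes MKK1, differed by -0.00 (SE 0.04, adjusted p = 0.99, limma) and Map2k2, which encodes MKK2, by -0.04 (SE 0.04, adjusted p = 0.45). Among 28 MAP kinase pathway genes tested, 6 were higher and 1 lower under PD0325901 by adjusted p, where 18.5% of all tested genes were higher and 22.2% lower, and differences ran from -0.18 to 0.16. Macrophage identity genes were strongly expressed in both arms: Csf1r, the receptor for the growth factor M-CSF, was at 15.14 to 15.17 under PD0325901 and at 15.16 to 15.37 in Map3k8[D270A] cells, and Adgre1, which encodes F4/80, was at 15.12 to 15.22 and 15.02 to 15.15.

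At 1 h of LPS, 54 of 11971 tested genes differed between the arms by at least 1 on the log2 scale at an adjusted p under 0.05 (0.451% of the genes tested). Of these, 38 were higher under PD0325901 (0.317%) and 16 were lower (0.134%). With the adjusted p alone, 2217 genes were higher and 2660 lower, 40.7% of those tested, so small differences between the arms were widespread. The median difference over all tested genes was -0.02. The values of the 6 and 6 libraries did not overlap for 51 of the 54 genes, against 25.1% of all tested genes. At 0.5 h of LPS, 48 of the 54 genes differed in the same direction at an adjusted p under 0.05, a threshold that 31.2% of all genes passed at that time.

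Most of the 54 genes also differed between resting controls of the arms. DMSO-treated WT cells without LPS differed from untreated WT cells without LPS in 46 genes by the same criteria (0.384%), and these libraries have no sample in common with the 12 libraries above. Of the 54 genes, 25 were also called between DMSO and WT (23 higher and 2 lower under PD0325901), and a further 14 had an adjusted p under 0.05 there in the same direction, where 23.6% of all genes did in either direction. The other 15 genes, 7 higher and 8 lower under PD0325901, met neither criterion. Across the 11971 genes, the direct difference and the DMSO to WT difference had a Pearson r of 0.70 and a Spearman rho of 0.59, which is a description across genes, since genes are not independent replicates and share the arm of their libraries. When the DMSO to WT difference was subtracted from the direct difference, 14 genes were called (0.117%; 9 higher and 5 lower), of which 11 were among the 54 and all 11 among the 15. This subtraction was chosen after the data were seen.

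**Figure D1:**
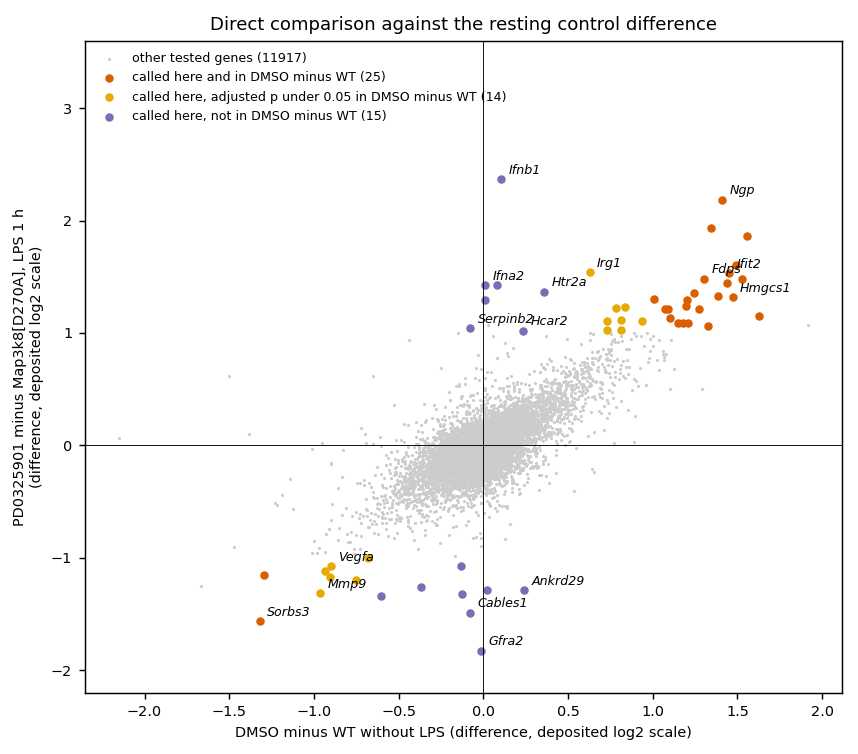
Each point is 1 of the 11971 tested genes: the horizontal axis gives its DMSO minus WT difference without LPS and the vertical axis its PD0325901 minus Map3k8[D270A] difference at 1 h of LPS, both on the deposited log2 scale. Called genes are coloured by whether the resting controls also differed. Hmgcs1, Fdps, Ifit2 and Sorbs3 lie near the diagonal and Ngp above it (2.18 against 1.41), whereas Ifnb1, Ifna2, Serpinb2, Gfra2 and Cables1 lie near a horizontal value of 0.

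Ifnb1 had the largest direct difference of the 54 genes, and the resting controls did not share it. Ifnb1, which encodes interferon-β, lay at 10.82, 11.09 and 12.80 (lowest, median and highest) in the PD0325901 libraries and at 8.71, 9.21 and 9.63 in the Map3k8[D270A] libraries. Every PD0325901 library was above every Map3k8[D270A] library, and both arms were above the 7.51 to 8.40 of WT cells after LPS. The direct difference was 2.37 (SE 0.25, adjusted p = 2.1e-13, limma). Against WT, Ifnb1 was higher by 3.62 under PD0325901 and by 1.25 in Map3k8[D270A] cells, with WT libraries common to both values.

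Without LPS all groups were at a mean of 4.61 to 4.88 for Ifnb1. The direct difference at 0.5 h of LPS was 0.37 (adjusted p = 0.26), and it grew by 1.99 from 0.5 to 1 h (adjusted p = 0.00018). Subtracting the DMSO to WT difference left 2.26 (adjusted p = 2.7e-05). Within the PD0325901 arm the Ifnb1 values were uneven: replicates 1 and 4 averaged 12.72, replicates 2 and 5 averaged 10.95 and replicates 3 and 6 averaged 11.04. The pair with the highest values was 1 of the 3 pairs that may be repeats of a culture, and even the lowest pair stood above every Map3k8[D270A] library.

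Ifna2 and Ifna5, which encode interferon-α subtypes, followed the same order at low levels. Ifna2 lay at 3.05, 3.17 and 3.57 under PD0325901 and at 1.52, 1.83 and 2.12 in Map3k8[D270A] cells, where WT cells after LPS were at 1.42 to 1.66 and resting WT and Map3k8[D270A] cells averaged 1.44. Its direct difference was 1.42 (SE 0.15, adjusted p = 5.5e-13). Ifna5 lay at 2.73, 2.98 and 3.40 under PD0325901 and at 1.66, 1.72 and 1.98 in Map3k8[D270A] cells, a difference of 1.29 (SE 0.13, adjusted p = 3.5e-14). Both genes differed by 0.00 at 0.5 h. Every PD0325901 library was above every Map3k8[D270A] library for both genes. The Ifna genes are a family of closely related copies on chromosome 4, so the assignment of reads among them is uncertain.

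The sequences before the start sites of these genes are shown since their transcripts moved together, with the promoters of Ifit3, Serpinb2 and Hmgcs1 for the gene groups described further on. Each run holds the 250 bases before the RefSeq start on build GRCm38.p6, 5′ to 3′ on the gene's strand, and capitals mark matches to GAAA, any 2 bases and GAAA (as in interferon-stimulated response elements), GGGAA, any base and TTCC (an NF-kB-type sequence), TGANTCA (an AP-1-type sequence) or TCACNCCAC (a sterol regulatory element-type sequence) on either strand.
Ifnb1 (chr4:88522795-88523044, minus strand): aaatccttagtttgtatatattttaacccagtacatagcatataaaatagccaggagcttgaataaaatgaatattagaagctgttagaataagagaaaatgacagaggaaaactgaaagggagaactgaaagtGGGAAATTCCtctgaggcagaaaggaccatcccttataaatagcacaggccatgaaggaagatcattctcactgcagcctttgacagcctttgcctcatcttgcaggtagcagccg
Ifna2 (chr4:88683780-88684029, minus strand): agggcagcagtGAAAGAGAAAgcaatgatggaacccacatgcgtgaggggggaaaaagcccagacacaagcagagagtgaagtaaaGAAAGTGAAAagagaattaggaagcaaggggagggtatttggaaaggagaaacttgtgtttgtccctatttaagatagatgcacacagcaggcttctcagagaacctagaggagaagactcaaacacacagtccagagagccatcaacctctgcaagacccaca
Ifna5 (chr4:88835275-88835524, plus strand): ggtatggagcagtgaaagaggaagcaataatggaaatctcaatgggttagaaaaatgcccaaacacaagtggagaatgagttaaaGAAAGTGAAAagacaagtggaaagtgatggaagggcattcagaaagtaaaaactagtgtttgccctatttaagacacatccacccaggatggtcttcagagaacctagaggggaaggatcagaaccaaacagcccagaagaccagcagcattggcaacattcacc
Ifit3 (chr19:34583279-34583528, plus strand): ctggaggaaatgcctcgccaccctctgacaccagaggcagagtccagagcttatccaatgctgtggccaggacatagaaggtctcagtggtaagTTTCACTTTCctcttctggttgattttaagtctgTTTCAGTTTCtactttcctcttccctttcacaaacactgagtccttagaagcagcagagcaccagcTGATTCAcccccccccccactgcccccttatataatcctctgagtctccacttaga
Serpinb2 (chr1:107511173-107511422, plus strand): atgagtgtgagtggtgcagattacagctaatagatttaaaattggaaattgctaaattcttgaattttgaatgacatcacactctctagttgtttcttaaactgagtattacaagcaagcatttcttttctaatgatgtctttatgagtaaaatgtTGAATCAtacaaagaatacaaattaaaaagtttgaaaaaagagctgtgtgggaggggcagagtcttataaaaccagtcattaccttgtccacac
Hmgcs1 (chr13:119690101-119690350, plus strand): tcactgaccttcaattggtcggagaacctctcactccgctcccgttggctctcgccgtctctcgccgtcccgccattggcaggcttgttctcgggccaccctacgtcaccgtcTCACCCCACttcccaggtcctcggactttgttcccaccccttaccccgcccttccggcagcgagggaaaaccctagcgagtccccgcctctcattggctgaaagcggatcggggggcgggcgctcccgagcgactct

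The Ifnb1 window held 1 match to the NF-kB-type sequence, which was found in 0.283% of the 32851 windows of this length. The paired GAAA sequence, found in 2.98% of all windows, occurred in Ifna2, Ifna5 and Ifit3. TGANTCA matched in Serpinb2 and Ifit3 and is found in 6.75% of windows, and TCACNCCAC matched in Hmgcs1 and is found in 1.05%. Of the 54 called genes, 34 had a promoter window, and the paired GAAA sequence occurred in 9 of these, TGANTCA in 5, and TCACNCCAC and the NF-kB-type sequence in 1 each. A CArG box, the SRF binding sequence, was in none of the 34 and in 1.47% of all windows. These matches describe the windows and are not evidence of binding.

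Several LPS-induced genes were lower in Map3k8[D270A] cells than in WT cells and less so, or not at all, under PD0325901. Serpinb2, which encodes plasminogen activator inhibitor-2, lay at 5.41, 5.56 and 5.89 under PD0325901 and at 4.33, 4.56 and 4.91 in Map3k8[D270A] cells, against 5.71 to 6.79 in WT cells. No PD0325901 library fell to the level of a Map3k8[D270A] library, and the direct difference was 1.04 (SE 0.14, adjusted p = 1.1e-09). At 0.5 h Serpinb2 differed by 0.06 (adjusted p = 0.79), and the increase of the difference to 1 h was 0.99 (adjusted p = 0.0015).

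Klf2, a zinc-finger transcription factor of quiescent myeloid and endothelial cells, lay at 8.42, 8.58 and 8.64 under PD0325901 and at 7.47, 7.60 and 7.83 in Map3k8[D270A] cells. WT cells after LPS were at 8.72 to 9.10, so that both arms were below WT and Map3k8[D270A] cells were lower than the PD0325901 arm by 0.94 (SE 0.08, adjusted p = 1.5e-16). For Klf2 the DMSO to WT difference ran the other way, at -0.44, and subtracting it gave 1.38 (adjusted p = 1.3e-13). Hcar2, the niacin and ketone body receptor, differed by 1.02 (SE 0.14, adjusted p = 6.9e-09), with 7.29 to 7.78 under PD0325901, 6.23 to 6.73 in Map3k8[D270A] cells and 7.07 to 8.37 in WT cells.

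Irg1 and Htr2a were above both Map3k8[D270A] and WT cells under PD0325901. Irg1 (Acod1 in RefSeq), which makes itaconate, was higher than in Map3k8[D270A] cells by 1.54 (SE 0.17, adjusted p = 2.8e-12). Its values were 13.82, 13.90 and 14.20 under PD0325901 and 12.11, 12.41 and 12.88 in Map3k8[D270A] cells, with WT cells between 12.57 and 13.76. The resting controls differed by 0.63 for Irg1, and 0.91 was left after subtraction (adjusted p = 0.026). Htr2a, a serotonin receptor gene, was at 7.45 to 7.66 under PD0325901 and at 5.59 to 6.75 in Map3k8[D270A] cells, a difference of 1.37 (SE 0.15, adjusted p = 6.3e-13), and WT cells were at 5.76 to 6.65. Htr2a already differed between the arms without LPS, by 0.52 with 10 min and 0.92 with 70 min of PD0325901. At 0.5 h of LPS its difference was 0.87, and the growth to 1 h was 0.50 (limma, adjusted p = 0.43).

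Ptgs2, which encodes cyclooxygenase-2, was also higher under PD0325901 than in Map3k8[D270A] cells, with 12.07 to 12.33 under PD0325901 and 11.20 to 11.48 in Map3k8[D270A] cells. The difference was 0.81 (SE 0.16, adjusted p = 3.8e-05), and the values against WT were -0.31 and -1.12. Tnf, the inflammatory cytokine, was at 15.97 to 16.08 and 15.64 to 15.75, a difference of 0.35 (SE 0.08, adjusted p = 0.00026) without overlap, and WT cells were at 16.12 to 16.37. Among 28 inflammatory cytokine and chemokine genes tested, 12 were higher and 3 lower under PD0325901 by adjusted p (18.5% and 22.2% of all tested genes), none was called, and the median difference was 0.19. Ccl3 (0.78), Ccl4 (0.90) and Cxcl10 (0.97) were the chemokines with the largest differences, and each had a resting DMSO to WT difference in the same direction, of 0.48, 0.58 and 0.90. For Il1b, the gene of interleukin-1β, the arms were at 13.86 to 14.08 and 13.67 to 13.97, which overlap, and the difference was 0.19 (adjusted p = 0.26), while WT cells were at 14.49 to 15.46.

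**Figure D2:**
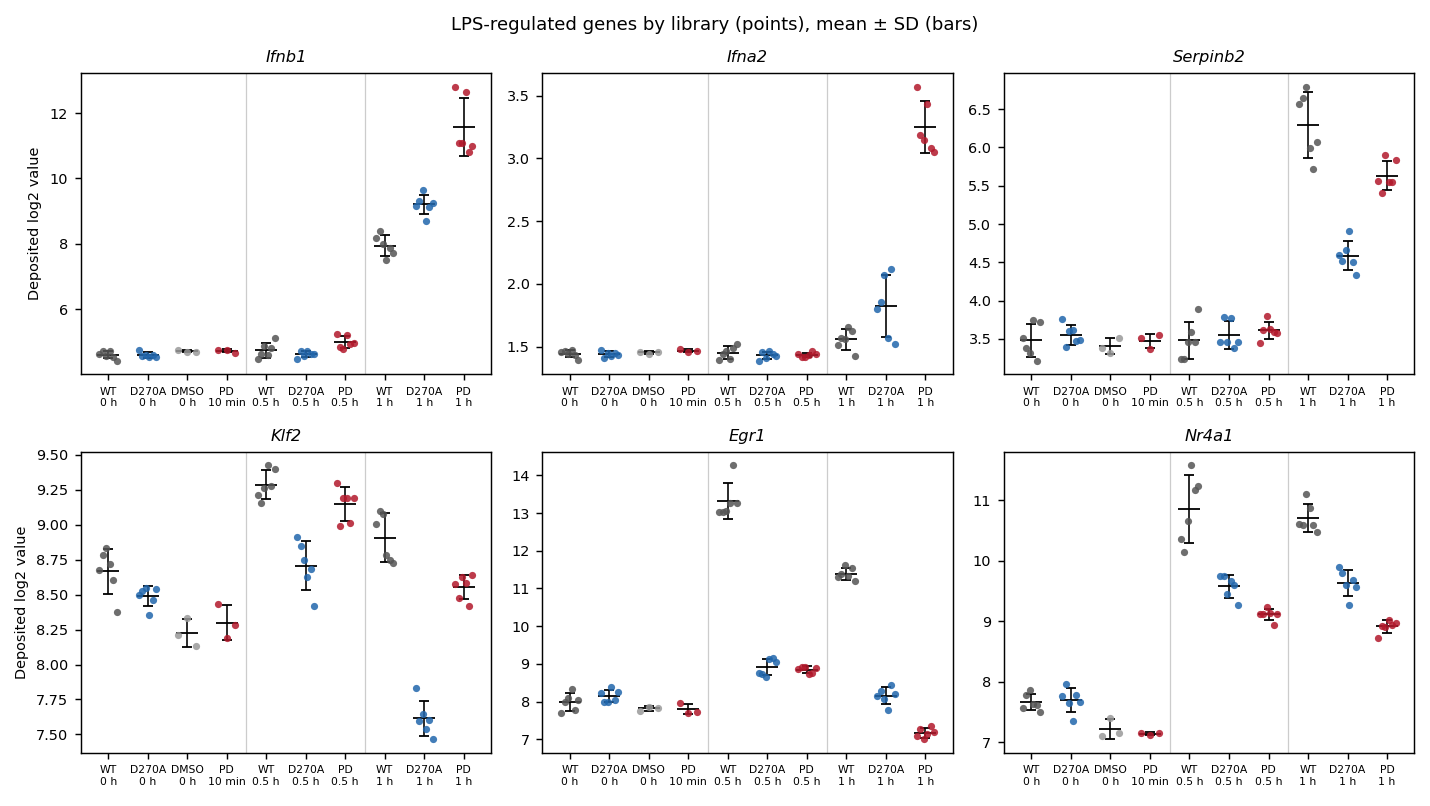
Deposited log2 values of 6 LPS-regulated genes in every library (points) with the mean and SD of each group (bars), without LPS on the left of the first line, at 0.5 h of LPS between the lines and at 1 h on the right. For Ifnb1 the 1 h PD0325901 libraries reach 10.82 to 12.80 and the Map3k8[D270A] libraries 8.71 to 9.63. Egr1 shows the opposite order, with 7.01 to 7.36 and 7.78 to 8.45, both far below the 11.19 to 11.62 of WT cells.

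Of 29 immediate early transcription factor genes tested, 21 were lower than in WT cells after 1 h of LPS by adjusted p in each arm, with 3 higher under PD0325901 and none higher in Map3k8[D270A] cells. Over all tested genes, 19.3% were lower than WT under PD0325901 and 4.8% in Map3k8[D270A] cells. In each arm 9 of the 29 were called lower, against 0.409% and 0.242% of all tested genes. The arms have the WT libraries in common. Egr1, an early growth response transcription factor induced by ERK, lay at 7.01, 7.16 and 7.36 under PD0325901 and at 7.78, 8.17 and 8.45 in Map3k8[D270A] cells. WT cells were at 11.19 to 11.62, so the arms lay 4.22 and 3.24 below WT. The direct difference was -0.98 (SE 0.14, adjusted p = 3.1e-08), and it was -0.07 at 0.5 h (adjusted p = 0.76), a change between the times of -0.91 (adjusted p = 0.0071). At 1 h of LPS the mean of Map3k8[D270A] cells equalled their resting mean of 8.15, whereas the PD0325901 mean of 7.17 was below the 7.82 of resting DMSO-treated cells.

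Fosb, an AP-1 subunit gene, lay at 6.58, 6.63 and 6.69 under PD0325901, close to the resting means of 6.53 to 6.62. In Map3k8[D270A] cells it lay at 6.92, 7.15 and 7.40 and in WT cells at 8.45 ± 0.36 (SD, n = 6). Every Map3k8[D270A] library was above every PD0325901 library, with a direct difference of -0.54 (SE 0.12, adjusted p = 9.2e-05). Fos itself differed less, at 10.02 to 10.25 under PD0325901 and 10.17 to 10.57 in Map3k8[D270A] cells, which overlap. The Fos difference of -0.28 (SE 0.11, adjusted p = 0.028) did not hold an adjusted p under 0.05 in 7 of the alternative settings, among them without Map3k8[D270A] replicate 5 (-0.24, adjusted p = 0.077) or 6 (-0.25, adjusted p = 0.065), without PD0325901 replicate 1 (-0.27, adjusted p = 0.052) or 6 (-0.27, adjusted p = 0.054), and with PD0325901 replicates averaged in pairs (-0.28, adjusted p = 0.11).

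Nr4a1, an orphan nuclear receptor gene, was at 8.72 to 9.02 under PD0325901, 9.28 to 9.89 in Map3k8[D270A] cells and 10.48 to 11.11 in WT cells, and its direct difference was -0.72 (SE 0.18, adjusted p = 0.00072). The DMSO to WT difference of Nr4a1 was -0.45, and -0.27 was left after subtraction (adjusted p = 0.66). With replicates 4 to 6 only, the direct difference of Nr4a1 was -0.53 (adjusted p = 0.13). Hbegf, a ligand of the EGF receptor, was at 7.04 to 7.28, 7.63 to 8.13 and 8.26 to 9.05 in the same order, a direct difference of -0.71 (SE 0.16, adjusted p = 0.00017). For both genes the groups did not overlap and Map3k8[D270A] cells lay between the PD0325901 arm and WT. Hbegf, like Nr4a1, did not keep an adjusted p under 0.05 (limma) when the DMSO to WT difference was subtracted. Between the arms, 10 of the 29 immediate early genes were lower and 7 higher under PD0325901 by adjusted p (22.2% and 18.5% of all tested genes) and none was called, with a median of -0.03. The higher genes were Klf2, Klf4 (0.55), Atf3 (0.51), Maff (0.42), Id2 (0.33), Klf6 (0.29) and Myc (0.28), so that the list did not move in one direction.

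Genes that restrain ERK differed between the arms in both directions. Dusp6, the cytoplasmic ERK phosphatase, was at 7.50, 7.58 and 7.69 under PD0325901 and at 7.89, 8.04 and 8.31 in Map3k8[D270A] cells, against 8.42 to 8.99 in WT cells. The ranges did not overlap and the difference was -0.48 (SE 0.09, adjusted p = 2.7e-06). Without LPS, mean Dusp6 was already lower with DMSO or the shortest PD0325901 treatment than in Map3k8[D270A] cells, as given further on. With that shortest treatment as the reference, the LPS response of Dusp6 differed little between the arms. Spry1, a Sprouty inhibitor of receptor tyrosine kinase signalling, differed by -0.60 (SE 0.11, adjusted p = 9.4e-06; with replicates 4 to 6 only, -0.40, adjusted p = 0.057), and its relative Spry2 by 0.10 (SE 0.07, adjusted p = 0.28). Dusp4, a nuclear MAP kinase phosphatase, was higher under PD0325901 by 0.40 (SE 0.07, adjusted p = 4.7e-06), at 11.74 to 11.92 against 11.18 to 11.58, which placed it within the WT range of 11.63 to 12.27. Among 20 ERK feedback genes tested, 7 were lower and 4 higher by adjusted p, where 22.2% and 18.5% of all tested genes were, none was called, and differences ran from -0.60 to 0.40 with a median of -0.07.

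Plat and Ptgir, of the plasminogen and prostaglandin list, were lower under PD0325901 without a matching resting difference. Plat, tissue plasminogen activator, was at 6.99 to 7.54 under PD0325901, 7.68 to 8.25 in Map3k8[D270A] cells and 8.06 to 9.33 in WT cells, a direct difference of -0.56 (SE 0.12, adjusted p = 0.00011). Ptgir, the prostacyclin receptor gene, was at 8.35 to 8.62 under PD0325901 and at 8.85 to 9.21 in Map3k8[D270A] cells, where it equalled WT (8.79 to 9.14), a direct difference of -0.54 (SE 0.06, adjusted p = 1.6e-11). Il10, the gene of the anti-inflammatory cytokine interleukin-10, lay at 8.68 to 9.03 and 8.74 to 9.63 and did not pass the test (-0.41, adjusted p = 0.08), and WT cells were at 9.46 to 10.18. The adjusted p of Il10 was under 0.05 in 3 of 22 settings: without Map3k8[D270A] replicate 4 (-0.52, adjusted p = 0.036) and in fits of the compared groups only, without (adjusted p = 0.032) or with (adjusted p = 0.035) a replicate block. With replicates 1 to 3 only the Il10 difference was -0.71 (adjusted p = 0.0501) and with replicates 4 to 6 only -0.12 (adjusted p = 0.797).

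Genes of cholesterol synthesis were the listed group with the most called genes higher under PD0325901, and the resting controls differed by a similar amount. Of 22 cholesterol synthesis and LXR genes tested, 18 were higher and 2 lower by adjusted p (18.5% and 22.2% of all tested genes) and 8 were called higher (0.317%), with a median difference of 0.85. Between DMSO and WT without LPS the same list had 18 higher, 2 lower and 8 called, with a median of 0.83, and the median after subtraction was 0.03. Hmgcs1, HMG-CoA synthase, was at 12.53, 12.55 and 12.79 under PD0325901 and at 11.15, 11.28 and 11.51 in Map3k8[D270A] cells, a difference of 1.32 (SE 0.08, adjusted p = 1.5e-25). Its resting means were 12.66 with DMSO and 11.19 without, so the gap stood in libraries without LPS or inhibitor. Fdps (1.48), Idi1 (1.30), Fdft1 (1.24), Cyp51 (1.22), Insig1 (1.11), Lss (1.09) and the fatty acid desaturase gene Scd1 (1.60) were the other called members. The 2 lower genes, Abca1 (-0.37) and Abcg1 (-0.32), encode LXR-induced cholesterol exporters.

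Interferon-stimulated genes behaved differently from Ifnb1 in this respect. Of 36 type I interferon and interferon-stimulated genes tested, 27 were higher and 1 lower under PD0325901 by adjusted p (18.5% and 22.2% of all tested genes), 6 were called higher (0.317%) and the median difference was 0.62. In DMSO-treated resting cells against WT the median of this list was 0.73, and after subtraction it was -0.09, with Ifnb1 the only member still called. Ifit2, an interferon-induced antiviral gene, was at 12.96, 13.19 and 13.89 under PD0325901 and at 11.46, 11.78 and 12.28 in Map3k8[D270A] cells, a difference of 1.53 (SE 0.28, adjusted p = 5.1e-06). The resting means of Ifit2 were 12.99 with DMSO and 11.54 in untreated WT cells, and after subtraction 0.08 was left (adjusted p = 0.95). Ifit3 (1.33), Ifit1 (1.31), Rsad2 (1.11) and Cmpk2 (1.09), antiviral genes as well, were also called, with 1.39, 1.01, 0.94 and 1.18 between DMSO and WT.

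Neutrophil-type granule genes were higher in the PD0325901 arm. Of 14 neutrophil markers 10 were tested, and 8 were higher and 1 lower by adjusted p (18.5% and 22.2% of all tested genes), with 5 called higher (0.317%) and 1 called lower (0.134%) and a median of 0.89. Ngp, neutrophilic granule protein, was at 6.05, 6.18 and 6.64 under PD0325901 and at 3.67, 3.88 and 4.76 in Map3k8[D270A] cells, a difference of 2.18 (SE 0.21, adjusted p = 1.1e-14), and 1.41 between DMSO and WT. S100a9, a calgranulin gene, differed by 1.93 (SE 0.29, adjusted p = 4.5e-08), and by 2.66 with replicates 1 to 3 only and 1.20 with replicates 4 to 6 only. Ltf (1.87), S100a8 (1.23) and Lcn2 (1.22) were also called higher, and Mmp9 was called lower (-1.32), a call that was lost with replicates 1 to 3 only (-0.93, adjusted p = 0.068). Between DMSO and WT, S100a9, Ltf, S100a8, Lcn2 and Mmp9 differed by 1.35, 1.56, 0.84, 0.78 and -0.96. The median of the list there was 0.70, and after subtraction it was 0.22 with no member called.

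The summed linear level of the neutrophil markers was 1258 to 1566 in the PD0325901 libraries and 776 to 1548 in the Map3k8[D270A] libraries. Ly6g, the surface marker of mouse neutrophils, was at -0.24 to -0.18 in all 12 libraries and Elane, neutrophil elastase, at -0.15 to -0.05, both near the lower end of the file. In bulk RNA, fewer cells of a type and less RNA per cell cannot be told apart. The part of these markers in the other results was not tested.

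Cell cycle genes were moderately higher under PD0325901, with 20 of 26 tested genes higher by adjusted p, none lower, none called and a median of 0.44, where 18.5% of all tested genes were higher and 22.2% lower. Ccnb1, cyclin B1, was at 9.73 to 10.05 under PD0325901 and at 8.34 to 9.60 in Map3k8[D270A] cells, a difference of 0.90 (SE 0.21, adjusted p = 0.00026), and Ccna2, cyclin A2, differed by 0.80. The DMSO to WT median of this list was 0.47. Among the genes lower under PD0325901, Sorbs3, which encodes the adhesion adaptor vinexin, had a difference of -1.57, As3mt, the arsenite methyltransferase gene, -1.16, and Vegfa, the angiogenic growth factor gene, -1.08. Their DMSO to WT differences were -1.32, -1.30 and -0.90.

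**Figure D3:**
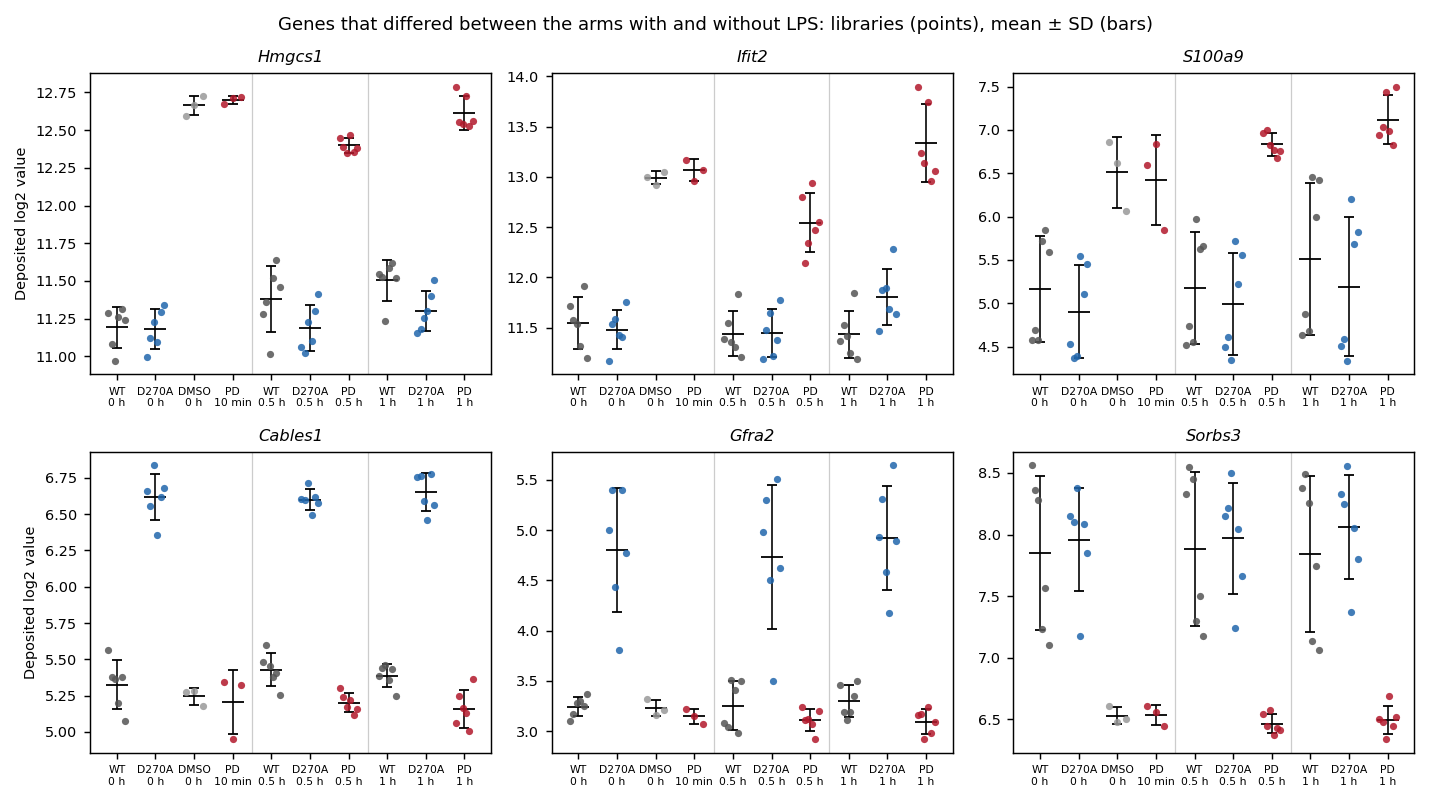
Deposited log2 values of 6 genes in every library (points) with the mean and SD of each group (bars), without LPS on the left of the first line, at 0.5 h of LPS between the lines and at 1 h on the right. Hmgcs1, Ifit2, S100a9 and Sorbs3 in resting DMSO-treated cells lie with the PD0325901 libraries, whereas Cables1 and Gfra2 set Map3k8[D270A] cells apart from all other groups at every time.

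A further group of genes differed between Map3k8[D270A] and WT cells already at rest. Defined as differing between the arms at 1 h, at 0.5 h and at rest (10 min of PD0325901) at an adjusted p under 0.05, by at least 0.5 at 1 h and, in the opposite sense, between Map3k8[D270A] and WT cells at rest, but not between DMSO and WT, 24 genes were found (18 lower and 6 higher under PD0325901). This definition used the direct difference, so their differences are given as a description. Gfra2, a co-receptor for neurturin (chr14:70890107-70979840), was at 2.93 to 3.25 under PD0325901, at 4.17 to 5.64 in Map3k8[D270A] cells and at 3.30 ± 0.16 in WT cells (SD, n = 6). Cables1, which encodes a cyclin-dependent kinase adaptor (chr18:11839274-11945627), averaged 5.16 ± 0.13, 6.65 ± 0.13 and 5.39 ± 0.08 (SD, n = 6) in the same order. Tnfrsf10b, a TRAIL receptor gene (chr14:69767472-69784411), was at 6.80 to 7.13, 8.11 to 8.58 and 7.29 to 7.51.

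Of these 24 genes, out of 11971 tested, 9 are among the 292 tested genes of chromosome 18, which holds Map3k8 (chr18:4331325-4352953), and 8 among the 392 of chromosome 14. Within 20 Mb of Map3k8, 8 of 50 tested genes belonged to this group. Ankrd29 (-1.29), Phyhip (-1.29), Abhd3 (-1.07) and the 3 genes above were called, and they make up 6 of the 8 called genes that were lower under PD0325901 without a resting DMSO to WT difference. Egr3 (chr14:70077317-70082613), an early growth response gene, also met the definition: it was higher by 0.82 in resting Map3k8[D270A] cells than in resting WT cells. After 1 h of LPS its order against WT was the opposite, with -1.69 in Map3k8[D270A] cells and -2.42 under PD0325901, and the direct difference was -0.73.

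Without LPS, Dusp6 and Myc were lower in the libraries with longer PD0325901 treatment. DMSO was sampled at 10 min alone, so inhibitor and time cannot be told apart at 40 and 70 min. After 10 min of PD0325901 no gene was called against DMSO (limma, 245 genes at an unadjusted p under 0.05). After 70 min 43 genes were called, 30 higher and 13 lower. Dusp6 averaged 9.70 with DMSO, 9.69 after 10 min of PD0325901, 8.57 after 40 min and 7.61 after 70 min, and 7.58 after 1 h of LPS with the inhibitor. In Map3k8[D270A] cells Dusp6 averaged 10.07 without LPS and 8.07 after 1 h of LPS. Myc, the growth-regulating transcription factor, averaged 9.74, 8.84 and 8.01 after 10, 40 and 70 min of PD0325901.

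With the 70 min libraries as the resting reference, the LPS response differed between the arms in 52 genes (0.434%), 20 with a more positive (0.167%) and 32 with a more negative (0.267%) signed change under PD0325901. The sign does not say in which arm the change was larger in size. The balance of signs depended on the filter, with 18 more positive and 13 more negative at a filter of 50 and 21 and 65 with no filter. Rgs1, a regulator of G protein signalling (2.25, adjusted p = 3.6e-33), Myc (2.10, adjusted p = 1.4e-35), Dusp6 (1.97, adjusted p = 4.2e-23), Ccl2, a monocyte chemokine (1.94, adjusted p = 5.0e-19), and Fos (1.39, adjusted p = 4.3e-10) had more positive changes under PD0325901. The mean changes of Rgs1, Myc and Ccl2 were positive in both arms, at 3.01, 2.98 and 3.85 with PD0325901 and 0.76, 0.87 and 1.91 in Map3k8[D270A] cells. For Dusp6 the change was -0.03 with PD0325901, from a 70 min reference already below the 10 min one. The Dusp6 mean of Map3k8[D270A] cells was lower with LPS, so the response difference depended on the reference. For Fos the changes were 0.98 and -0.41. With the 10 min libraries as the reference, an alternative chosen after the data were seen, these values were 0.28, 0.38, -0.11, 0.65 and -0.24, and 7 genes were called (0.0585%). Those 7 were Ifnb1 (2.24), Ifna2 (1.40), Ifna5 (1.27), Klf2 (1.13), Serpinb2 (1.12) and the deubiquitinase gene Otud1 (1.02), with more positive changes under PD0325901, and the splicing kinase gene Clk1 (-1.12), with a more negative one.

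The 40 and 70 min PD0325901 libraries without LPS also held more Fabp7 and Olig1, genes of glial type chosen after their values were seen. The listed neural and glial markers did not share this. Their summed linear level was 1350 to 1405 after 70 min and 1378 to 1478 after 40 min, which overlapped the 1339 to 1430 with DMSO. Fabp7, a fatty acid binding protein of radial glia, was at 7.54 to 8.20 in the 70 min libraries and at 7.07 to 8.13 in the 40 min libraries, against 2.87 to 3.06 with DMSO and 2.92 to 3.28 after 1 h of LPS with the inhibitor. Olig1, an oligodendrocyte transcription factor gene, was at 3.18 to 6.70 after 70 min and at 0.75 to 0.86 with DMSO. The 70 min reference gave Fabp7 an LPS response difference of -4.70 and Olig1 one of -3.67. Such transcripts count among the 32 negative differences. The changes of Fabp7 and Olig1 were -4.67 and -3.63 under PD0325901 and 0.03 and 0.04 in Map3k8[D270A] cells. The expression filter counted libraries of any group, so genes high only in the 40 and 70 min PD0325901 libraries could pass it. With a filter of 50 in its place, 13 negative and 18 positive differences were called. Mir6236, of the ribosomal RNA and library quality list, was at 8.68 to 9.44 after 70 min and 7.39 to 9.13 after 40 min, against 2.39 to 2.64 with DMSO and 2.47 to 2.78 after 1 h of LPS with the inhibitor, and its response difference was -6.49, also called. The part of these transcripts in the other response differences was not tested. Sox10, a glial transcription factor gene, was at -2.33 to -2.32 in the 12 LPS libraries at 1 h.

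**Figure D4:**
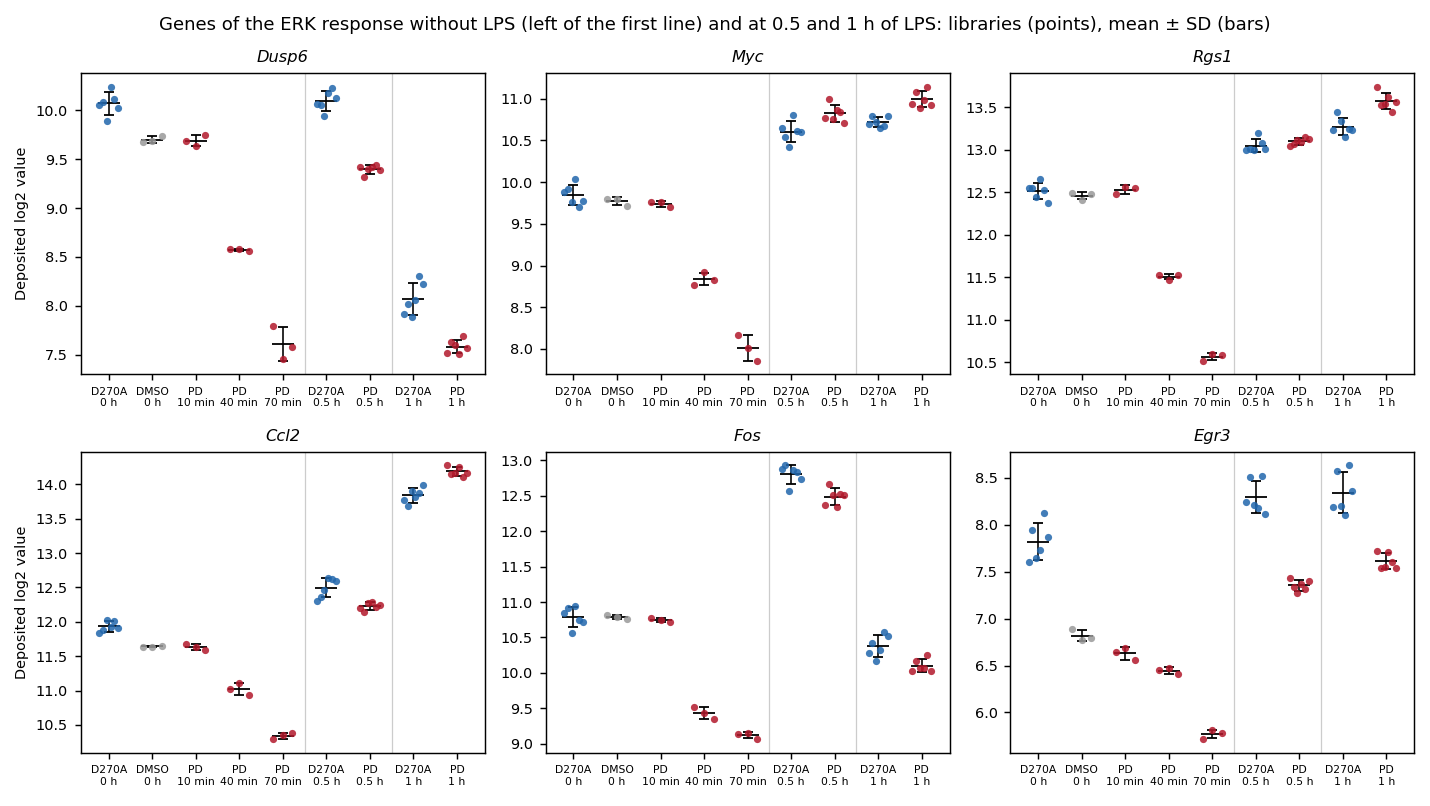
Deposited log2 values of 6 genes of the ERK response in every library (points) with the mean and SD of each group (bars), without LPS on the left of the first line and the LPS times on the right. Dusp6 and Myc fall from 10 to 70 min of PD0325901 without LPS (9.69 to 7.61 and 9.74 to 8.01). At 1 h of LPS the means of the PD0325901 and Map3k8[D270A] arms are 7.58 and 8.07 for Dusp6 and 10.99 and 10.72 for Myc.

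The plasminogen, prostaglandin and matrix list held 4 called genes of 22 tested at 1 h, against 0.451% of all tested genes. Serpinb2 and F10, the gene of coagulation factor X (1.12), were higher, and Vegfa and Thbs1, the gene of thrombospondin-1 (9.39 to 9.71 against 10.03 to 10.92), lower, and for F10, Vegfa and Thbs1 the DMSO to WT differences were 0.81, -0.90 and -0.68. Vegfa was also the 1 called gene of the glycolysis and hypoxia list. Among 23 NF-kB genes tested, 4 were higher and 2 lower by adjusted p, with Traf1, a TNF receptor adaptor, at 0.36 (0.21 with replicates 1 to 3 only, adjusted p = 0.29) and Nfkbia, the gene of IκBα, at -0.27. Of 7 MAP kinase phosphatase genes outside the ERK feedback list, 2 were higher and 1 lower, the last being Dusp2 (-0.35; -0.28 with replicates 4 to 6 only, adjusted p = 0.21). Of 15 CREB target genes 2 were higher and 3 lower, of 29 macrophage genes 4 and 5, of 23 heat shock and stress genes 6 and 7, of 22 plasminogen, prostaglandin and matrix genes 8 and 6, and of 18 glycolysis and hypoxia genes 2 and 6. These counts stand against 18.5% of all tested genes higher and 22.2% lower. Hspa1b, an inducible HSP70 gene, had a difference of -0.70.

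**Figure D5:**
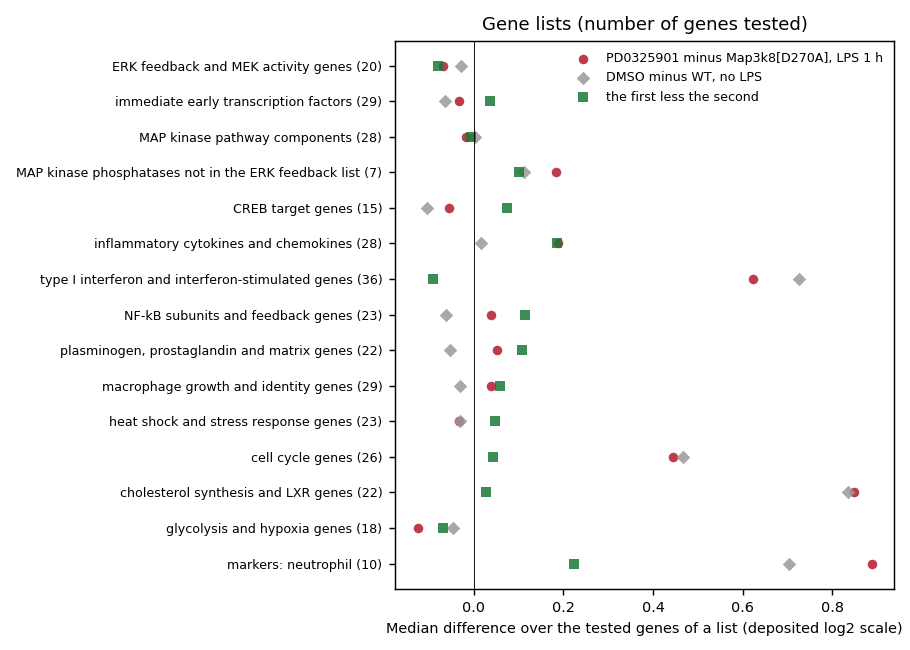
Median difference over the tested members of each gene list, on the deposited log2 scale, for PD0325901 minus Map3k8[D270A] at 1 h of LPS (circles), DMSO minus WT without LPS (diamonds) and the first less the second (squares), with the number of genes tested in brackets. The cholesterol, interferon, neutrophil and cell cycle lists have medians of 0.85, 0.62, 0.89 and 0.44, and after subtraction 0.03, -0.09, 0.22 and 0.04.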

How the data were processed

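The authors deposited a table of normalised values on a log2 scale for 18098 genes in 119 libraries, from -2.40 to 19.81. The sources used here do not give the transformation, and they give a typical sequencing yield but no depth for each library. The submitters' processing notes name STAR 2.5.1b, RSEM 1.2.29, DESeq2 1.10.1 and mm10. One value, 57.73 (Fosb in another arm), was set to missing. Differences were tested with limma 3.58.1 (R 4.3.3) over all 119 libraries with 1 mean per group, for 11971 genes that reached a linear 10 in 3 libraries or more. Genes were called at a Benjamini-Hochberg adjusted p under 0.05 and a difference of at least 1. On simulated data with independent noise for the direct comparison, 99% of changes of 1.5 and 100% of changes of 2 were recovered. Changes nearer to the threshold of 1 and repeated libraries were not simulated. Positions and promoters are RefSeq GRCm38.p6 (11472 genes matched by symbol, 456 by synonym).

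The members and gene lists were chosen with earlier results of these data known. The genes named were the 10 with the largest non-overlapping difference in each direction, up to 4 members of each list with the smallest adjusted p, called list members, and Map3k8, Map2k1, Map2k2, Egr1, Fos, Dusp6, Spry2, Ifnb1, Il10 and Tnf. Others, among them Ifna5, Hcar2, Hbegf, Il1b, Otud1, Clk1, Rgs1, Ccl2, Abhd3, Fabp7, Olig1 and Mir6236, were chosen after their values were seen. Alternatives covered filters, scaling, thresholds, fits, left-out or averaged replicates, replicate sets and the reference.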

Additional observations from a re-analysis of the deposited data

Results flagged for a closer look

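Among 252 groups of 6 libraries looked at for the named genes, 14 held a library whose gap to its neighbour exceeded Dixon's critical value, where chance alone flags about 1 in 20 groups. In Map3k8[D270A] libraries these were replicate 4 for Acta2 (3.96), Bnip3 (9.72) and Rgcc (6.12), replicate 5 for Cmpk2 (11.73), Hdc (4.59) and Lck (4.33), replicate 6 for Dusp14 (5.24) and replicate 1 for Sparcl1 (0.85). In PD0325901 libraries they were replicate 4 for Col1a1 (2.95) and Col1a2 (3.93), replicate 6 for Dnajb1 (9.48), replicate 5 for Elk3 (10.51), replicate 1 for Nr4a1 (8.72) and replicate 3 for Thbs1 (9.71).

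For 14 named genes the PD0325901 to Map3k8[D270A] difference changed between 0.5 and 1 h of LPS by the test of that change (limma, adjusted p under 0.05). Here and above, this test treated the libraries of both times as independent. Same-numbered libraries may be linked across times: for Aurka, Map3k8[D270A] replicate 4 was lowest and replicate 6 highest at both. The difference rose for Ifnb1 (1.99), Ifna2 (1.42), Ifna5 (1.29), Serpinb2 (0.99), Hcar2 (0.78), Traf1 (0.64), Ccl2 (0.62), Klf2 (0.5), Ccr7 (0.49) and Atf3 (0.36). It fell for Egr1 (-0.91), Ptgir (-0.39), Nfkbia (-0.3) and Mbp (-0.17).

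The PD0325901 libraries at 40 min without LPS, which enter none of the tested differences, held transcripts above the level with DMSO: the means were 7.44 for Fabp7, 3.31 for Sparcl1, 3.45 for Olig1 and 8.22 for Mir6236.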

How the results depend on the processing

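Counts are given for PD0325901 versus Map3k8[D270A] at 1 h (54 genes), at 0.5 h (52) and at rest after 70 min (98), the LPS response difference (52), DMSO versus WT (46), PD0325901 versus WT at 1 h (88) and Map3k8[D270A] versus WT at 1 h (35). A minimum difference of ln 2 gave 208, 194, 299, 110, 175, 228 and 79 genes, and the adjusted p alone 4877, 3733, 3745, 576, 2827, 4268 and 1278. For the direct comparison at 1 h, replicates 1 to 3 only gave 87 genes, subtraction of the DMSO to WT difference 14 and subtraction of the 0.5 h difference 5. The response difference had 86 genes with no filter, 31 with a filter of 50 and 7 with the 10 min reference. Leaving out each replicate gave 53 to 62, 47 to 57, 91 to 115, 50 to 55, 46 to 51, 79 to 95 and 31 to 37. Averaging PD0325901 replicates in pairs gave 53 at 1 h. The cause of these shifts was not tested, beyond the number of genes that a threshold admits.

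Over 2843 refits of 130 named genes, 64 lost and 14 gained an adjusted p under 0.05. No gene with an adjusted p under 0.05 in the main fit changed direction, and changes of direction in the other named genes were not counted. Same-numbered libraries of the arms correlated at -0.24 to -0.01 at 1 h, so the numbers do not pair them, and the fit with a replicate block gave 52, 51, 102 and 56 genes for the first 4 comparisons. No paired fit was made for the other comparisons. Without counts for each library, the precision of low genes such as Ifna2 is unknown.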
